A study of Homo sapiens with 10 samples.

Results

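The comparison set cells carrying a lasting disruption of GATA6, made with CRISPR/Cas9, against unedited cells of the same line. The line was DLD-1, an established human colorectal adenocarcinoma line. Open chromatin was mapped by Omni-ATAC, an ATAC-seq protocol in which a transposase cuts accessible DNA and leaves sequencing adapters at the cuts. The comparison used 4 of the 10 libraries of the series, 2 of unedited cells (WT) and 2 of knockout cells (KO), and each library was represented by the list of 500 bp windows that its authors called open. The other libraries came from a line whose GATA6 protein carries an auxin-inducible degron (GATA6-AID-IAA7), and only its 2 control libraries (AID_ctrl, labelled with auxin at a time of 0 h and read as untreated) were used here, as an outside ranking of how strongly a place is open. No treatment was given to the WT and KO cells in the labels. Neither the guide, nor whether the KO cells were 1 clone, nor whether replicates were separate cultures is stated in the sources used here, so the spread between 2 libraries of a group may be technical.

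GATA6 is a zinc-finger transcription factor that binds the DNA letters GATA and their reverse complement. With its relatives it directs the formation of endoderm, and in the adult gut it is known for maintaining epithelial identity and supporting stem cells and secretory lineages. Factors of this family can bind sites in closed chromatin, a property that ties them to accessibility.

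Windows of the 4 lists on chromosomes 1 to 22 and X that overlapped were merged into 157584 regions. A region was counted as called in a library when one of the library's windows overlapped it. It was counted as lost when both WT lists and neither KO list called it, as gained in the opposite case, as retained when all 4 lists called it, and as mixed otherwise. Lost regions numbered 1958, or 1.24% of all regions, gained regions 30771, or 19.5%, and retained regions 50295. The lists hold coordinates and no score, so the classes describe which places passed the authors' calling, not how far signal changed. They carry no p-value.

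Before the counts, 6 promoters show the kinds of call that the comparison turns on. SPINK4 encodes a protease inhibitor of goblet cells, the mucus-secreting cells of the gut. Its promoter was called in both WT lists and in neither KO list, as was that of BNIP5. MMP10, a matrix-degrading enzyme, and TNFSF15, a cytokine of the tumour necrosis factor family, were called at their promoters in both KO lists and in neither WT list. CDX2, a transcription factor that specifies intestine, and KRT20, a keratin of differentiated intestinal epithelium, were called at their promoters in all 4 lists. The 250 bases before each gene's start are printed 5′ to 3′ along the gene's own strand, as held by RefSeq for GRCh38.p14. Capitals mark every match to AGATAA or TGATAA, or to their reverse complements TTATCT and TTATCA, the letters that GATA factors are known to prefer. The sequences are SPINK4 at chr9:33239917-33240166 (plus strand), BNIP5 at chr6:36336889-36337138 (minus strand), MMP10 at chr11:102780629-102780878 (minus strand), TNFSF15 at chr9:114792531-114792780 (minus strand), CDX2 at chr13:27969316-27969565 (minus strand) and KRT20 at chr17:40885243-40885492 (minus strand).
SPINK4: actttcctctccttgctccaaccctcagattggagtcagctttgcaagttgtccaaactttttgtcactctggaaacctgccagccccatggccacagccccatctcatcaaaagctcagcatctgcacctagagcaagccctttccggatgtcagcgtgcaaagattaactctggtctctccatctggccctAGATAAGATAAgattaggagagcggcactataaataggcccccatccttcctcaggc
BNIP5: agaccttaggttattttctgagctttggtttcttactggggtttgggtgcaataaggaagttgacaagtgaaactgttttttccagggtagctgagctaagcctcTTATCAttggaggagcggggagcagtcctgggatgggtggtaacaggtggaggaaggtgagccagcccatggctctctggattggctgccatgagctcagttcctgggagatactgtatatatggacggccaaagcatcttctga
MMP10: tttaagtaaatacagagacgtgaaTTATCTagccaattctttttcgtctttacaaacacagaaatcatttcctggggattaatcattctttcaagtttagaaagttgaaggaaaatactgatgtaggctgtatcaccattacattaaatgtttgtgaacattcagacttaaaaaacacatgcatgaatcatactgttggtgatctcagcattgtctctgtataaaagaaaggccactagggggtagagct
TNFSF15: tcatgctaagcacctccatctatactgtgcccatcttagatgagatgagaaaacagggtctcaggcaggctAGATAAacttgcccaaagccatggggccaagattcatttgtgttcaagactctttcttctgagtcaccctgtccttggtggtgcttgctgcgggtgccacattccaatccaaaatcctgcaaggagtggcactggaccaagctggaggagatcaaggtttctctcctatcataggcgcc
CDX2: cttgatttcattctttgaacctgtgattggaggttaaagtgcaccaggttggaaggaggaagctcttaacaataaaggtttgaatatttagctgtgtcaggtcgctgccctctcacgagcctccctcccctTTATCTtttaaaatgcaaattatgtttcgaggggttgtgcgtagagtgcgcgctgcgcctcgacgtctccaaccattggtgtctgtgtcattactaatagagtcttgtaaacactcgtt
KRT20: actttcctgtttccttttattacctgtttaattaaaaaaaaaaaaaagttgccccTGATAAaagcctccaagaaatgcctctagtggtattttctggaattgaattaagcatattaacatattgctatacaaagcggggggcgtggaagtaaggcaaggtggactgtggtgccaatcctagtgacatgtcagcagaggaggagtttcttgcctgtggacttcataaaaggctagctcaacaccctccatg
The SPINK4 promoter holds 2 overlapping AGATAA matches that begin 57 and 52 bases before the gene's start. BNIP5 holds TTATCA at 145 bases, MMP10 TTATCT at 226, TNFSF15 AGATAA at 179, CDX2 TTATCT at 119 and KRT20 TGATAA at 195 bases before the start. These promoters were chosen after their calls and matches were seen, and a match describes the letters only. Lost, gained and retained promoters alike held such matches, and how often each class did is given with the promoters.

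The knockout lists were the longer ones. The WT lists held 92814 windows in replicate 1 and 65939 in replicate 2, and the KO lists held 130311 and 116231. The groups did not overlap, and the mean KO list was 1.55 times the mean WT list (two-sided exact permutation p = 0.333, the smallest that 2 against 2 libraries allow). Read depth is unknown because the lists give no counts, and list length depends on it. Depth and the knockout cannot be told apart as sources of the longer KO lists.

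The WT pair shared less than the KO pair, by a smaller margin when the shorter list of each pair was the base. Of the regions called in WT replicate 1, 58.9% were also called in WT replicate 2, but 86.6% and 84.1% were called in KO replicates 1 and 2. Of the regions called in KO replicate 1, 82.8% were also called in KO replicate 2. Taken from the shorter list of each pair, 83.4% of WT replicate 2 regions were called in WT replicate 1 and 93.0% of KO replicate 2 regions in KO replicate 1. The pattern "WT replicate 1 and both KO lists, but not WT replicate 2" accounted for 24844 regions, more than any other mixed pattern. The reverse case, in which WT replicate 2 alone of the WT lists joined both KO lists, accounted for 1085. Both counts moved by over 1.5 times when certain single libraries were left out. Judged without WT replicate 1, regions lost would number 10964 and regions gained 55615. Without WT replicate 2, lost regions would number 11278, and without KO replicate 2, gained regions would number 49575.

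**Figure D1:**
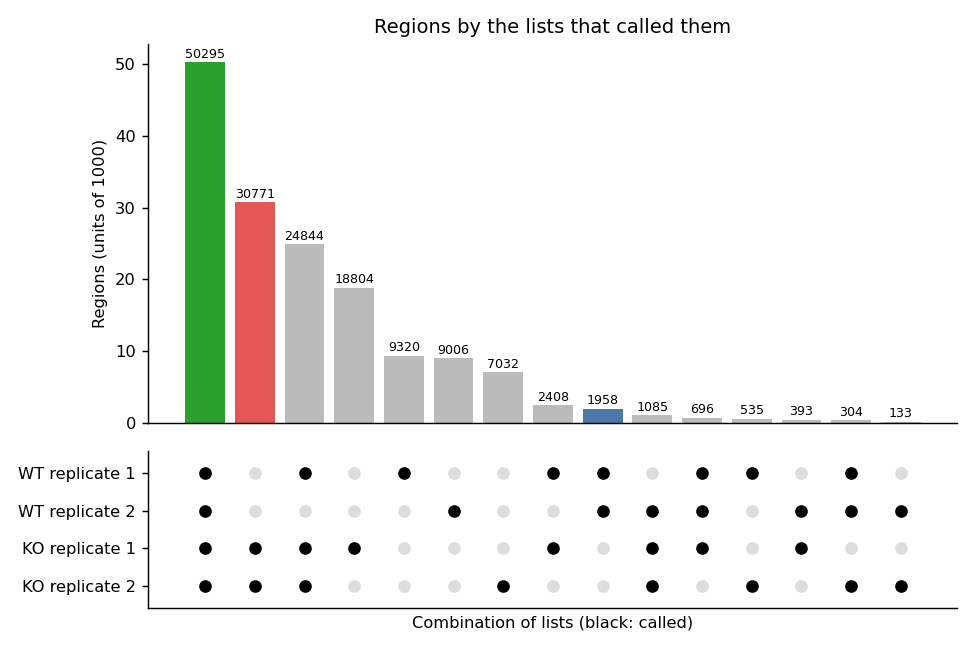
Number of merged regions (in units of 1000, vertical axis) for each of the 15 combinations of lists that called them. Black dots under a bar mark the lists that called the region. Green marks retained, red gained, blue lost and grey mixed regions. Gained regions (30771) formed the second largest combination, and lost regions (1958) were fewer than the regions called by any single list alone (7032 to 18804).

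Most epithelial marker promoters that could be checked were called, and promoters of a few markers of other cells were not. Longer lists of other cell types, checked with a wider promoter window, held called promoters too. Of 11 colorectal epithelium markers, 5 had a promoter window in the RefSeq table, and 4, 4, 3 and 4 of these were called in WT replicates 1 and 2 and KO replicates 1 and 2. CDX2, KRT20 and KRT8 were called at the promoter in all 4 lists. No promoter of the 3 blood and immune genes or of the 2 fibroblast and endothelial genes with a window was called in any list. Counting every region near these genes, the epithelial markers had 82, 70, 92 and 86 regions, the 7 blood and immune markers 18, 15, 28 and 29, and the 7 fibroblast and endothelial markers 42, 25, 56 and 46, in the same order of libraries. The longer lists were counted with the promoter window widened by 500 bp on either side, so they are not directly comparable. There, 6, 5, 6 and 7 of 15 blood and immune promoters and 3, 3, 4 and 4 of 8 fibroblast and endothelial promoters were called. The part of other cells in the results was not tested. The GATA6 locus itself (chr18:22169589-22202528) had 19 and 15 regions called in WT and 29 and 26 in KO, and its promoter was called in all 4 lists. Open chromatin at a gene does not show whether its protein is made, so this does not check the knockout.

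Lost and gained regions lay in different places relative to genes. Gene ends here are the start and the end of a protein-coding gene in the RefSeq table. Retained regions lay within 1000 bp of a gene end in 22.3% of cases (95% Wilson interval 21.9 to 22.7), lost regions in 15.4% (13.8 to 17.0) and gained regions in 4.90% (4.67 to 5.15). These intervals cover counting error only, and neighbouring regions are not independent. Gained regions lay inside gene bodies, over 1000 bp from either end, in 48.1% of cases, against 39.3% of lost and 39.1% of retained regions. Over 100000 bp from any protein-coding gene lay 15.7% of gained, 16.8% of lost and 9.66% of retained regions. Gained regions were thus the class poorest in gene ends. The lost class was nearer to the retained one, but many of its regions had a KO window directly beside them.

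Of the 1958 lost regions, 771 (39.4%) had a KO window within 1000 bp, placed beside the WT windows without overlap. Of these, 34.1% lay within 1000 bp of a gene end. The region at the promoter of NFKB1, a subunit of the inflammatory factor NF-kB, was lost by the rule (chr4:102501775-102502282), but a KO window lay 61 bp away. At the start of TDP1, which encodes an enzyme that removes stalled topoisomerase from DNA, a lost region at chr14:89955848-89956360 and a gained one at chr14:89955249-89955829 lay 18 bp apart. All 8 lost promoter regions with the highest rank in the degron line were of this kind, at POLDIP3, ZNF646 with ZNF668, NFKB1, NUDT13, PTP4A1, TRIM41, EFCAB11 and TDP1, with a KO window 18 to 179 bp away. The same was true of the 8 highest ranked lost regions anywhere, whose KO windows lay 36 to 393 bp away. They included regions at MORN4, NCEH1, STIL and CALM2.

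With those set aside, 1187 lost regions had no KO window within 1000 bp, and 3.20% of them (2.34 to 4.36) lay within 1000 bp of a gene end. The same condition left 27120 gained regions, of which 3.85% (3.62 to 4.08) lay near a gene end. Under this condition, added after the data were seen, both classes were far from gene ends alike. In these subsets the median distance to the nearest window of the other group was 6571 bp for lost and 8769 bp for gained regions.

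How strongly a place was open in the degron line separated the classes further. The AID_ctrl lists carry the −log10 p of the authors' peak caller, and a region was called strong when it ranked in the top 50% of both AID_ctrl lists. Of retained regions 79.9% were strong, of lost regions 45.1% (883 regions) and of gained regions 2.46% (758 regions). The lost share was a mixture. Lost regions with a KO window within 1000 bp were strong in 76.1% of cases (587 regions), those without in 24.9% (296 regions). For gained regions, with or without a WT window within 1000 bp, the shares were 8.46% and 1.66%. The lost and gained regions at TDP1 had the same percentiles in both AID_ctrl lists, so a rank can belong to a place called in both groups. Neither AID_ctrl list called 57.3% of gained regions, 30.1% of lost and 2.59% of retained regions. A line that carries GATA6 cannot rank a place that opens only without it, so the low rank of gained regions has a part that the ranking fixes.

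Among the 50158 strong regions the 4 lists were close: 96.0% were called in WT replicate 1, 84.5% in WT replicate 2, 94.3% in KO replicate 1 and 93.7% in KO replicate 2. WT replicate 2 stood lowest. Deciles were set on the lower of a region's ranks in both AID_ctrl lists, so regions not called in both have no decile. In the lowest decile of the rank the lists came apart, with 52.8% and 17.5% called in WT and 91.0% and 80.8% in KO. In the highest decile the order turned, with 96.3% in each WT list and 94.2% and 94.0% in KO. Among these regions the gap between the groups lay at weakly open places, where WT replicate 2 also fell far below WT replicate 1. Places that the AID_ctrl lists called but no WT or KO list did are left out. Weak places entered more often through the longer KO lists, so the high KO percentages there are partly fixed by how regions entered.

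**Figure D2:**
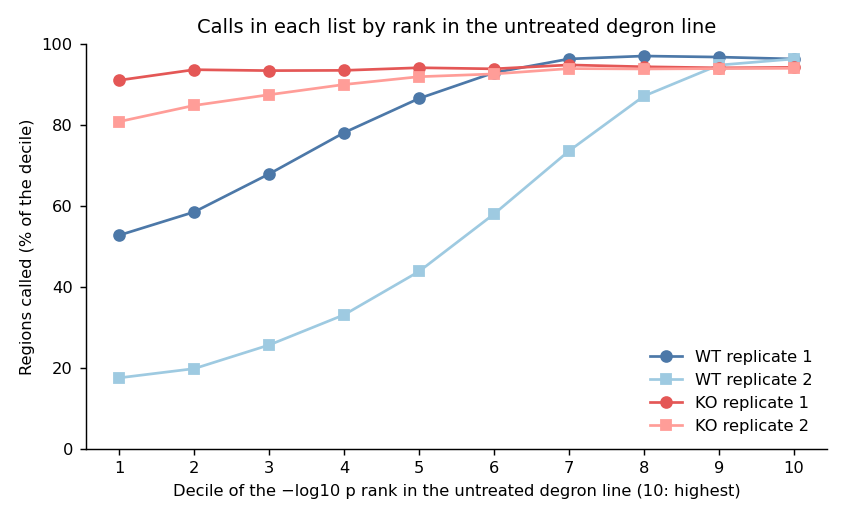
Percent of regions called in each list (vertical axis) against the decile of the −log10 p rank in the untreated degron line (horizontal axis, 10 is strongest). The KO lists stay between 80.8% and 94.8% over all deciles, whereas WT replicate 2 rises from 17.5% to 96.3%. Only regions called in at least one of the WT or KO lists and in both AID_ctrl lists are counted.

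The deciles hold 7267 of the 30771 gained regions and 1220 of the 1958 lost ones, those called by both AID_ctrl lists. Gained regions there fell from 1475 in the lowest decile and 1864 in the next to 56 and 60 in the top 2 deciles. Lost regions numbered 50 in the lowest decile and 200 and 181 in the top 2, but the deciles held from 4502 to 13179 regions. As a share of the decile, lost regions were 1.11% in the lowest, 2.23% in the sixth and 1.75% and 1.37% in the top 2, and gained regions 32.8% in the lowest and 0.455% in the highest. Without a KO window within 1000 bp, however, the lost regions peaked in the sixth decile, with 102, and 15 remained in the highest. Gained regions without a WT window within 1000 bp numbered 5 and 0 in the top 2 deciles. At the most strongly open places, then, almost every change of call had a window of the other group beside it.

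**Figure D3:**
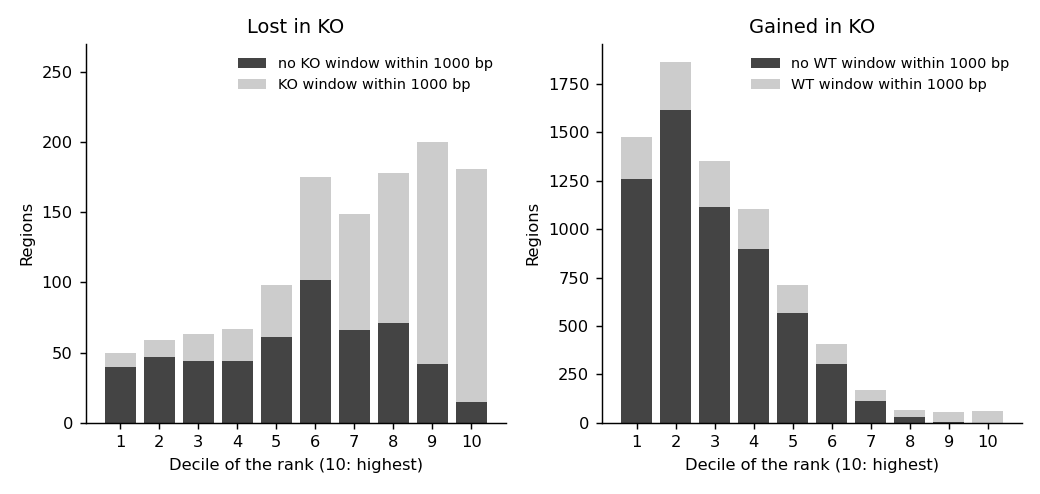
Number of lost regions (left) and gained regions (right) by decile of the −log10 p rank in the untreated degron line (10 is highest). Dark parts have no window of the other group within 1000 bp. Only regions called by both AID_ctrl lists are counted, and the vertical scales differ. Of the 181 lost regions in the highest decile 15 are dark, and of the 60 gained regions 0.

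A group of 296 strong regions was called in both WT lists and had no KO window within 1000 bp. The strongest were distal. The first lay inside PKNOX2, a homeobox gene, at chr11:125410781-125411382, in the 97.0th percentile of AID_ctrl replicate 1 and the 97.8th of replicate 2, with the nearest KO window 5624 bp away. Others lay at chr12:42922040-42922614 and chr18:41714861-41715446, both over 100000 bp from any protein-coding gene, and inside NAALAD2, SLC35F4 and STK10. These regions and their order were chosen after their values were seen. By gene, CALN1, a calcium-binding protein gene of neurons, held 4 such regions, and CAMK4, AP4E1, ARMC2, TTC13, PKD1L1, BPNT2 and RAD51B were among those with 2. CAMK4, a calcium-dependent kinase, had 5 and 3 regions called in WT and 3 and 2 in KO, with 2 lost, 0 gained and 1 retained. PKD1L1 had 14 and 9 in WT and 16 in each KO list, so its 2 lost strong regions came with more calls around the gene, not fewer.

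The 449 strong regions gained without a WT window within 1000 bp included 2 at LDB2, which encodes a LIM-domain binding cofactor. This gene was chosen after its values were seen. LDB2 had no region called in either WT list and 10 and 8 in KO. One of these lay at chr4:16864084-16864591, in the 82.9th and 93.7th percentiles of the AID_ctrl lists. The ZNF429 promoter region (chr19:21505601-21506168) was also gained, with the nearest WT window 65177 bp away. Both places were open in the degron line, which carries GATA6, so they are open in 1 GATA6-carrying line and not called in the other.

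Promoters were called about equally in the groups. Over 15812 protein-coding genes with a RefSeq promoter window (250 bases before to 50 after the start), 57.5% and 55.1% were called in WT and 57.1% and 54.8% in KO. By the same rule as for regions, 344 genes (2.18%) lost their promoter call and 291 (1.84%) gained one. When the window was widened by 500 bp on either side, an alternative added after the data were seen, the lost genes numbered 49 and the gained genes 285. These are not subsets of the first counts. GREM1, lost under the wider margin, and ZNF429, gained under it, were neither lost nor gained in the narrower window. Most of the 344 genes thus had a KO window within that margin, whereas the number of gains stayed similar.

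Lost regions that overlapped a promoter window and had no KO window within 1000 bp were led by SPINK4. A gene can have several promoter windows, so such a region need not change the call of the gene. Its region at chr9:33239936-33240535 ranked in the 83.9th and 85.9th percentiles of the AID_ctrl lists, and the nearest KO window lay 5427 bp away. The gene itself was not bare of calls, with 5 and 4 regions in WT and 5 in each KO list. RLN2, a relaxin hormone gene, followed in the 75.1st and 77.9th percentiles. LTF, the iron-binding protein lactotransferrin, and WNT2B, a WNT ligand, were among the others. Gained regions of the same kind overlapped promoter windows of ATG5, an autophagy gene, SIN3A, a corepressor scaffold, and BMPER, which encodes a regulator of BMP signalling. WNT2B, ATG5 and SIN3A were not among the genes that lost or gained their promoter call under the wider margin. Both sets of promoter regions were picked under a condition added after the data were seen.

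How GATA letters at lost promoters compared depended on the comparison and the margin. In the unwidened window they were less frequent than at promoters in general, which include uncalled ones. They were more frequent there than at retained promoters, whose interval (6.16 to 7.22) overlapped that of the lost ones. Of all 22132 promoter windows, 12.4% held AGATAA or TGATAA on either strand. The share was 8.89% of the windows of lost promoters (45 of 506, 6.71 to 11.7), 11.7% of gained (53 of 454), 6.67% of retained and 19.3% of windows called in no list. Under the wider margin 13 of 81 lost windows held it (16.0%, 9.63 to 25.5), against 62 of 443 gained windows and 6.94% of retained windows. The interval of the lost windows then covered the share over all promoters and lay above the share of retained windows. The letters TGAGTCA or TGACTCA, which AP-1 factors bind and which share no overlap with the GATA letters, stood in 8.15% of gained windows (37 of 454), 3.95% of lost, 3.03% of retained and 4.01% of all. Median GC content was 66% in lost and retained, 61% in gained and 55.3% in uncalled windows, and its part in these shares was not tested.

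At the level of genes, regions within 100000 bp were assigned to the nearest protein-coding gene. Of 72997 assigned regions that were lost, gained or retained, 2.23% were lost and 35.5% gained, and these are the shares against which each gene or list is read. To allow for list length, a gene's regions were also given per 10000 regions of its list. Of 990 genes with at least 10 regions in each WT list, 48.8% had a lower share in both KO lists than in both WT lists and 13% a higher one. The genes were admitted by their WT counts alone, which favours a lower KO share, so nothing is read from this imbalance.

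The genes with the most lost regions mixed tandem losses with ordinary large loci. ADGRL2, an adhesion receptor (latrophilin), had 12 and 8 regions called in WT and 6 and 3 in KO, with 4 lost, 0 gained and 3 retained. All 4 lost regions had no KO window within 1000 bp, and 3 of them formed a run at chr1:81678420-81682986. LAMA2, a laminin chain of basement membrane, had 27 and 16 against 19 and 16, and its 3-region lost run lay at chr6:129191333-129209881. CALN1 had 24 and 8 in WT and 14 and 23 in KO, so its 5 lost regions went with overlapping totals. RAD51B, a homologous recombination gene, had 5 lost but 11 gained and 43 retained, and PDE4D, a cAMP phosphodiesterase, had 5 lost, 18 gained and 20 retained. In GPC5, PLEKHG1 and CWH43, 4 regions each were lost and 4 to 6 gained. POTEM went from 5 and 12 regions to 3 and 2, and TPTE from 8 and 11 to 3 and 1. Both belong to families with near-identical copies, where the placement of reads is uncertain.

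The lowest KO share relative to WT among genes with at least 10 regions in each WT list belonged to GALNT17, an enzyme of O-linked glycosylation, with 17 and 11 regions in WT and 7 and 5 in KO (ratio of shares 0.271). MEMO1, a gene of cell migration, had 11 and 10 against 6 and 6 (0.354), and TSHZ3, a zinc-finger factor, 12 and 10 against 8 and 7 (0.424). PPARD, a nuclear receptor for fatty acids, had 12 and 11 against 9 and 8 (0.456). TSPAN8, a tetraspanin of gut epithelium, had 12 in each WT list and 10 in each KO list (0.512). In these 5 genes the KO counts were lower than both WT counts even before scaling, although the KO lists were longer. The genes were selected for this order, so it is a description.

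**Figure D4:**
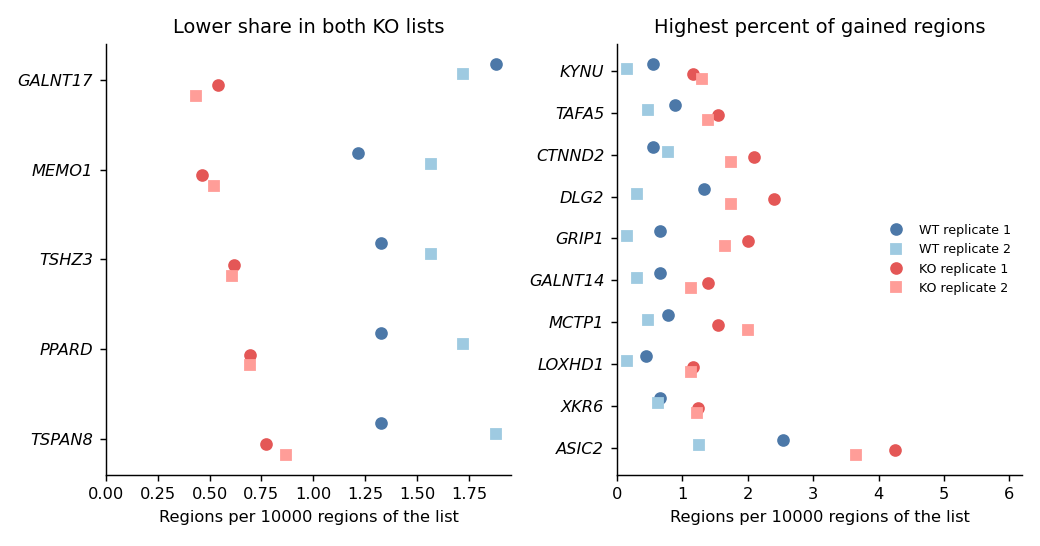
Regions per 10000 regions of the list (horizontal axis) for the 5 genes with the lowest KO to WT ratio of shares (left) and for the 10 genes with the highest percent of gained regions (right). Each symbol is 1 library. Both groups of genes were selected for the separation that the plot shows.

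At the other end, KYNU, an enzyme of tryptophan breakdown, and TAFA5, a secreted protein gene, had 10 gained regions each and no retained or lost one. KYNU had 5 and 1 regions called in WT and 15 in each KO list, and TAFA5 had 8 and 3 against 20 and 16. CTNND2, the delta-catenin gene, had 5 in each WT list and 27 and 20 in KO, and 16 of its 17 regions that were lost, gained or retained were gained. GRIP1, a scaffold of glutamate receptors, went from 6 and 1 to 26 and 19, and DLG2, another synaptic scaffold, from 12 and 2 to 31 and 20. MCTP1 (7 and 3 against 20 and 23), GALNT14 (6 and 2 against 18 and 13) and LOXHD1 (4 and 1 against 15 and 13) followed. WT replicate 2 was the lowest list in each of these except CTNND2, where the WT lists were equal. Most of these genes are long, and their length was not part of the rule.

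Some changes lay side by side in runs. A run was a series of regions of 1 class at most 20 kb apart with no retained region between. Of gained regions 38.6% lay in 5142 runs, and of lost regions 12.8% in 121 runs. More regions of a class make runs likelier, and that was not tested. The longest gained run held 9 regions at chr1:205913486-205977217, with 7 assigned to SLC26A9, an anion transporter known from stomach and airway, and 2 to RAB7B. Over its span, 2 and 1 regions were called in WT and 13 and 12 in KO. The next held 8 regions at chr11:102760271-102811392, with 5 assigned to MMP10 and 3 to MMP1, neighbouring genes for enzymes that degrade matrix. MMP10 had no region in either WT list and 5 in each KO list, and MMP1 had 2 and 1 in WT and 5 and 4 in KO. Another 8 lay at chr19:23504957-23555142, near ZNF675.

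Lost runs were short. The longest, with 4 regions, lay at chr21:10372772-10401471, near the centromere. A run of 3 lost regions lay at MUC12, a membrane mucin of the colon, at chr7:100994680-100999873. MUC12 had 6 regions called in each WT list and 4 and 3 in KO. All 3 of its lost regions had no KO window within 1000 bp, and no KO list called any region in the run.

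Gene lists by function differed mainly in how many of their regions were gained. Of 23 lists, 4 had a higher share per 10000 regions in both KO lists than in both WT lists, 12 a lower one, and 7 overlapped. All assigned regions together were also lower, at 8844 and 8922 in WT and 8712 and 8785 in KO. The lower lists included housekeeping genes as well as epithelial identity genes and the GATA family and partners. The higher ones were ion channels, axon guidance and adhesion, enteroendocrine genes and mesenchymal transition. The lists and their members were drawn up with earlier results of these data known.

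Ion channels had the largest gained share, 55.1% of 341 regions that were lost, gained or retained, against 35.5% over all genes. ASIC2, an acid-sensing channel, had 23 and 8 regions in WT and 55 and 42 in KO, and CACNA1C, a calcium channel, 17 and 11 against 41 and 37. KCNQ1, the potassium channel of colonic and cardiac cells, had 28 and 23 against 35 and 29, with 2 lost and 8 gained. Axon guidance and adhesion genes were at 48.4%, and all 37 members, which together had 498 such regions, had at least 1 gained one. Over all genes with such a region, 10501 of 16662 had a gained one. PLXNA4, a semaphorin receptor, had 30 and 18 in WT and 58 and 54 in KO. NTN4, a netrin, was the exception in losses, with 3 lost, 5 gained and 13 retained. Of the 188 gained regions of the ion channel list, 4 were strong in the degron line, near the share over all genes (648 of 25929).

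Enteroendocrine genes, which mark the hormone-secreting cells of the gut, had 21 gained and 1 lost of 41 regions (51.2% gained). NEUROD1, a factor of that lineage, had 6 and 1 regions in WT and 10 and 9 in KO. In mesenchymal transition, 51 of 135 regions were gained (37.8%), near the share over all genes. PRRX1, a mesenchymal homeobox factor, had 1 and 0 in WT and 7 and 6 in KO, and CDH2, N-cadherin, 14 and 11 against 26 and 24. VIM, vimentin, had 1 lost, 0 gained and 2 retained, so the members did not all move alike.

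Epithelial identity genes were among the most stable, with 19.4% gained, 3.03% lost and 128 of 165 regions retained. EPCAM, an epithelial adhesion molecule, had 13 in each WT list and 15 and 14 in KO, and CDH1, E-cadherin, 12 and 10 against 14 and 13. All 12 members with a promoter window kept that call under the wider margin. Over all genes 9531 of 15812 did and 4692 had no call in any list, and all 14 housekeeping members with a window kept theirs. Housekeeping genes were similar at 17.4% gained, and their 8.70% lost (6 of 69 regions) came without exception from regions with a KO window within 1000 bp.

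Enterocyte and goblet genes had the higher lost shares among the intestinal lists, on small numbers. Enterocyte and colonocyte genes lost 5 of 79 regions (6.33%, against 2.23% over all genes), 3 of them without a KO window within 1000 bp. Over all genes, 910 of 72997 regions were lost without such a window. APOA4, an apolipoprotein of enterocytes, had 3 and 2 regions in WT and 1 in each KO list, and VIL1, villin of the brush border, had 3 in each WT list and 2 in each KO list. Goblet and secretory genes lost 5 of 63 regions (7.94%), again 3 without a KO window within 1000 bp. SPDEF, a goblet cell factor, lost 2 and retained 1, with 5 and 3 regions in WT and 3 in each KO list, and TFF3, the trefoil peptide of goblet cells, lost 1 and retained 2. In the same list MUC5B, a secreted mucin more typical of airway, had 4 and 5 in WT and 11 and 10 in KO with 5 gained, and REG4 had 2 gained. Both lists also had 20 or more gained regions, so neither moved in 1 direction as a whole. The lost counts were sensitive to the WT libraries. Without WT replicate 1 they were 16 for enterocyte and 19 for goblet genes, beside 10964 over all regions. Without WT replicate 2 they were 17 and 12, beside 11278.

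Members of the GATA family and partners had 20 gained, 0 lost and 36 retained regions, a gained share of 35.7% beside 35.5% over all genes. GATA6 had 6 gained and 12 retained, and GATA3 3 and 3. Intestinal and endoderm factors had 74 gained (29.0%), 9 lost and 172 retained. ISX, an intestinal homeobox factor, had 13 and 8 regions in WT and 19 and 17 in KO. CDX2 had 8 and 7 against 9 and 8, with 7 retained and none lost or gained. In the squamous list 17 of 46 were gained (37.0%, again near the share over all genes), including 8 at TP63, the squamous master factor, which had 11 and 4 in WT and 16 and 15 in KO.

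Signalling lists had gained shares below the 35.5% over all genes. WNT targets and stem cell genes had 27.0% gained and 4 of 189 lost, with none of the 4 lost regions free of a KO window within 1000 bp. TCF7L2, the WNT effector, had 25 and 20 in WT and 38 and 33 in KO, and EPHB2, a crypt receptor, gained its promoter call under the wider margin. BMP and TGF-beta signalling had 29.9% gained. Under the wider margin 2 of its 25 members with a promoter window lost that call, beside 49 of 15812 over all genes. They were BMPR1A, a BMP receptor, and GREM1, a BMP antagonist. BMPR1A had 0 lost, 1 gained and 4 retained regions. In the narrower window the GREM1 promoter was called only in WT replicate 1. Among AP-1 and stress genes 23.5% were gained, and JUN had 9 and 7 against 16 and 17. In the YAP and fetal intestine list 30.8% were gained, with ANXA1 at 13 and 8 against 20 and 19. Cell cycle genes lost no region and had 23.1% gained.

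Along the genome, chromosome X stood out. Its windows per 10000 of the list were 202 and 168 in WT and 260 and 248 in KO, 1.37 times the WT mean, and 51.8% of its lost, gained or retained regions were gained. Of 23 chromosomes, 7 (30.4%) had a higher share in both KO lists and 10 (43.5%) a lower one. Chromosome 4 was the next highest at 1.10 times, and chromosomes 21, 19 and 17 were lowest at 0.894, 0.904 and 0.908 times. DNA copy number was not measured, so a change in the copies of a chromosome and a change in its openness cannot be told apart.

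**Figure D5:**
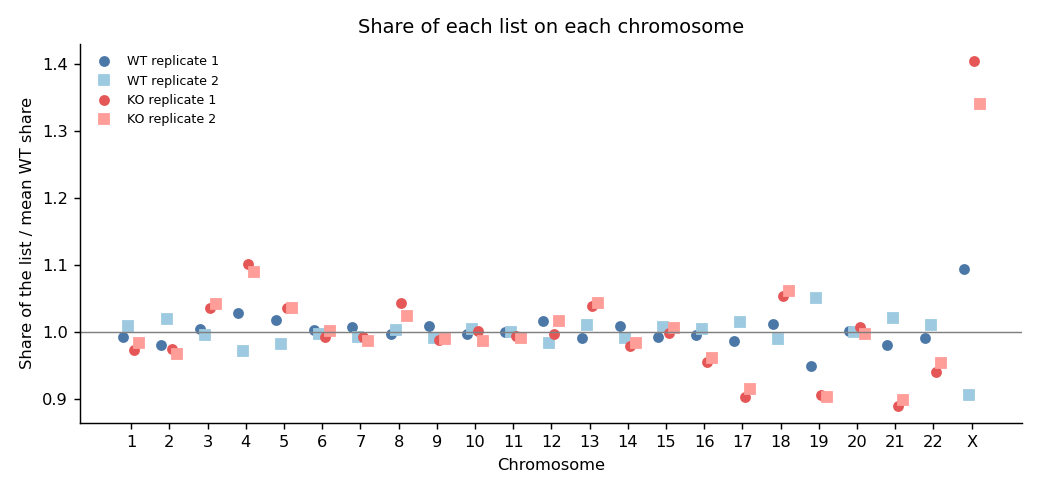
Share of each list's windows on each chromosome, divided by the mean share of both WT lists (vertical axis). Each symbol is 1 library. The KO lists lie above both WT lists on chromosome X (1.37 times the WT mean), and below them on chromosomes 17, 19 and 21.

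In bins of 1 Mb, 570 of 1943 (29.3%) had a higher share in both KO lists and 643 (33.1%) a lower one. The highest ratio among bins with at least 20 regions was at 136 to 137 Mb of chromosome X, where 9 and 4 regions were called in WT and 44 and 28 in KO (3.60 times by share). It holds VGLL1, a TEAD cofactor, with 1 and 0 regions in WT and 6 and 5 in KO, and FHL1, a LIM-domain gene, with 2 and 1 against 6 and 5. The next was at 23 to 24 Mb of chromosome 19, a cluster of zinc-finger genes, with 8 and 9 against 51 and 41 (3.27 times) and 31 gained regions. ZNF91, a repressor of retroelements, had 3 in each WT list and 17 and 14 in KO. A bin at 71 to 72 Mb of chromosome 4, with SLC4A4, a bicarbonate transporter, had 14 and 4 against 36 and 27.

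The lowest bin was at 10 to 11 Mb of chromosome 21, beside the centromere, with 32 and 35 regions in WT and 9 and 11 in KO (0.183 times), 14 lost, 0 gained and 5 retained. It holds TPTE. A bin at 8 to 9 Mb of the same chromosome (29 and 26 against 23 and 18) and one at 49 to 50 Mb of chromosome 4 (34 and 36 against 36 and 28), with CWH43, followed. Reads there can match several copies, and how the authors treated such reads is not given in the sources used here.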

How the data were processed

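ATAC-seq windows from 2 WT and 2 KO libraries of DLD-1 cells were compared. The authors trimmed reads with Trim Galore 0.6.10, aligned them to hg38 with Bowtie2 2.4.2, and used Picard and MACS2 2.1.1, per the submitters' processing notes. No source used here gives parameters, the transposase offset or how the 500 bp windows were set. Of WT and KO cells the authors deposited 66078 to 130807 windows per list without a score, so depth is unknown. The deposited AID_ctrl lists hold a −log10 p-value per peak, the authors' own, used only as a percentile rank within each list. The 4 auxin and wash libraries were not used here, and 0 other sample columns were used.

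Windows on chromosomes 1 to 22 and X were merged where they overlapped and compared as defined in the report, with 19974 RefSeq protein-coding genes of GRCh38.p14 for names and positions. All 504 distinct members of the 23 gene lists matched. Symbols and positions came from RefSeq on the same assembly. Genes named follow rules on most lost regions, highest percent gained, lowest ratio of shares, strongest promoters and regions, longest runs, up to 3 most lost and most gained members per list, markers and extreme bins. Items named outside them were chosen after their values were seen. MUC12, SLC26A9, MMP10 and MMP1 come from the runs, and VGLL1, FHL1, ZNF91 and SLC4A4 lie in the extreme bins. The members and lists were chosen with earlier results of these data known. Lists were compared by counts without a model, and list length by an exact permutation test. Alternatives left out each library, joined windows up to 500 bp apart, required 50% cover, kept the top 50% of the AID_ctrl ranks, skipped merging, and changed the distance to a gene end. The merging code was tested on simulated data. Analyses used Python 3.11.15, numpy 2.4.6, pandas 2.3.3, scipy 1.17.1 and matplotlib 3.10.9.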

Additional observations from a re-analysis of the deposited data

How the results depend on the processing

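No paired analysis was possible because the counts come from no test and the rule already needs both replicate numbers of a group to concur. Leaving out each library in turn, lost regions ranged from 2262 to 11278, gained from 31856 to 55615 and retained from 50599 to 75139, and the percent within 1000 bp of a gene end from 8.46 to 17.2 for lost, 4.98 to 5.78 for gained and 17.2 to 22.3 for retained regions. The ratio of list lengths ranged from 1.33 to 1.87. Fewer lists that have to concur admit more regions by construction. Restricted to the top 50% of both AID_ctrl lists, 883 regions were lost and 758 gained, and 27.3%, 12.9% and 25.9% of lost, gained and retained regions lay near a gene end. Without merging, 3862 were lost. With no window of the other group within 1000 bp, 1187 were lost, and 3.20% of lost and 3.85% of gained regions lay near a gene end. With windows up to 500 bp apart joined, these shares were 4.05% and 4.19%, and with 50% cover 18.0% of lost and 21.8% of retained regions. With near taken as 500 bp, lost, gained and retained shares were 10.1%, 3.05% and 20.2%, and as 3000 bp 22.6%, 10.9% and 28.3%. Promoters lost were 49 with a 500 bp margin. Lost regions were thus nearer to gene ends than gained ones in all of these settings but 2, windows joined and no window of the other group nearby. Of 46 list counts, 0 stayed within 1.5 times without WT replicate 1, 23 without WT replicate 2, 23 without KO replicate 2, 39 without KO replicate 1 and 9 with regions inside gene bodies only. Of 354 counts for named genes, 293 stayed within 1.5 times with windows joined and 229 with regions inside gene bodies only. The lists hold no counts, so neither depth nor the size of a change in signal could be measured.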

Other observations

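Promoter letters for other factors also differed by class. TATAAA, on either strand, stood in 12.8% of the windows of gained promoters (10.0 to 16.2), 7.51% of lost, 4.06% of retained and 14.9% of uncalled windows. CACGTG, the letters of the E-box, stood in 6.39% of gained, 11.3% of lost, 10.4% of retained and 6.22% of uncalled windows. In both cases the gained windows lay nearer to the uncalled ones and the lost windows nearer to the retained ones. Median GC content followed the same order, and its part was not tested.

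Among HOX genes, HOXB1 had 6 gained, 2 lost and 2 retained regions, with 4 regions in each WT list and 9 and 8 in KO. THY1, a surface marker of fibroblasts, had 2 and 1 regions in WT and 9 and 7 in KO, while COL3A1 had 2 and 1 against 1 and 1.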
